A study of Mus musculus with 8 samples.

Results

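Among the small RNA sequences of mouse testes, 9599 of 6246223 carried the mRNA annotation NM_011101 of Prkca (5542 sequences) or NM_144811 of Cbx7 (4057 sequences) in the authors' deposited list. The members are the rows with either name in the annotation column. Both names were selected on the number of their sequences and on the low share that matched the spliced mRNA, so these values are given only as a description. In the range of 24 to 33 nt, called piRNA length here, there were 7725 of 4883266 sequences, 4373 for Prkca and 3352 for Cbx7. Tdrd6 mutant testes were sampled 18 days, 25 days and 6 weeks postnatally, and Tdrd1 mutant testes were sampled 18.5 days post conception. Each time had a heterozygous and a homozygous group of 1 library, which gives 8 groups. Tdrd1 and Tdrd6 encode Tudor-domain proteins that bind Piwi proteins. All groups carried at least 1 mutant allele, and the labels gave no strain and no wild-type group. The list pools the libraries and ties no sequence to any of them. Genotypes and ages therefore could not be compared, and the depth of each library is unknown. Each sequence was listed once however often it was read, so every count below is a number of distinct sequences and not an amount of RNA. No test was possible, and the 95% intervals (exact, Clopper-Pearson) cover counting error only.

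Piwi-interacting RNAs (piRNAs) are small RNAs of animal germ cells that guide Piwi proteins to complementary transcripts. In the mouse testis most piRNAs of meiotic cells come from long single-stranded precursors made at genomic clusters, which are cut so that one piRNA tends to begin where another ended, and mature piRNAs usually begin with U, written T in the list. In the ping-pong cycle, cutting by a Piwi protein yields a partner on the opposite strand whose 5' end overlaps the first by 10 bases and which tends to have A at position 10. Prkca encodes protein kinase C alpha, a signalling kinase activated by calcium and diacylglycerol. Cbx7 encodes a chromodomain protein of Polycomb repressive complex 1, which reads methylated histone H3.

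The 5' ends with most length variants show what the members look like. At 12 Prkca 5' ends and 5 Cbx7 5' ends, a sequence of each of the 10 lengths from 24 to 33 nt was listed. The following are the 30 nt forms at 5 of these 5' ends for each gene, the first 5 in alphabetical order for Prkca and all 5 for Cbx7, with bases 1 and 10 in capitals:
Prkca 1: TaatggctgAgctatttctccaagtcagat
Prkca 2: TactggaccGcaactgggtgttgcttcaat
Prkca 3: TagccatgaCaggtggcaagcagtatcaga
Prkca 4: TaggaaactGcaaagctcaaatgataatag
Prkca 5: TagttgctgAcagatttattttcagaaaag
Cbx7 1: TactatcagTccaaatcccagaacaattgg
Cbx7 2: TagtcaagtGgctctgagcagacacaaaca
Cbx7 3: TatcagtccAaatcccagaacaattggctc
Cbx7 4: TgaaaagatGgagctataatatttatgcaa
Cbx7 5: TgcaatcccTtcgctttgagatgtgaagat

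All 10 began with T, while base 10 took each of the 4 bases. Cbx7 sequences 1 and 3 overlap one another and lie on the same stretch of 109 nt. Prkca sequences 1, 2 and 3 lie on a single stretch of 291 nt.

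The sequences of both names lay packed in short, heavily covered stretches. A stretch is a run of sequence put together from the members themselves, because no genome was used. Members of any length from 16 nt that mapped to 1 position were split into overlapping runs of 16 nt. Runs were linked where one continued another by 1 base, and a stretch ended at any fork. Stretches with at least 10 sequences of piRNA length are called dense. For Prkca, 17 dense stretches with a total of 2949 nt held 4121 sequences, 94.5% of those mapped to 1 position. For Cbx7, 37 dense stretches with a total of 3648 nt held 3075 sequences, 91.7%. The Prkca sequences were thus the more densely packed, with 1397 sequences per kb of dense stretch against 843 per kb for Cbx7. The 5 fullest stretches held 72.0% of the Prkca sequences in 1837 nt and 53.0% of the Cbx7 sequences in 1158 nt. The largest Prkca stretch was 445 nt long and held 847 sequences, and the densest was the one of 291 nt with 768 sequences. The largest Cbx7 stretch was 329 nt long and held 505 sequences.

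How tightly the 5' ends were set can be read from the 60 nt windows with most start positions, printed here with capitals at each base where at least 1 sequence of the strand began:
Prkca window: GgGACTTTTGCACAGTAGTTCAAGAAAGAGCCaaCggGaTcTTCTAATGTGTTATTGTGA
Cbx7 window: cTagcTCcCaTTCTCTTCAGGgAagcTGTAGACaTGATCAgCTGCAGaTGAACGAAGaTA

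In the Prkca window, which lies on the 445 nt stretch, 53 of 60 bases were the first base of at least 1 sequence, and 223 sequences began there. In the Cbx7 window, on a stretch of 288 nt, 46 of 60 bases were, and 140 sequences began there. Every T was used as a start in both windows, 18 of 18 in Prkca and 14 of 14 in Cbx7. The windows were chosen for their starts, and the figures for all dense stretches were lower. Over all dense stretches, 46.7% of Prkca positions and 29.9% of Cbx7 positions carried a 5' end on the strand with more sequences.

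T was the preferred first base at both loci. Among sequences of piRNA length, 63.3% of the Prkca sequences (95% interval 61.9 to 64.8%, n = 4373) and 67.2% of the Cbx7 sequences (65.6 to 68.8%, n = 3352) began with T. The share was 70.9% for Kcnk10 and 74.2% for Asb1, the 2 genes with a symbol and more sequences, and 78.6% for all other mRNA-annotated sequences. Unannotated sequences began with T in 69.4% of cases. A stood at position 10 in 26.6% of Prkca and 28.5% of Cbx7 sequences, beside 25.8% of the other mRNA-annotated and 28.5% of the unannotated ones. The neighbouring positions 9 and 11 had similar shares of A, 27.5% and 26.2% in Prkca and 27.1% and 28.8% in Cbx7.

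The excess of T also held when positions were counted in place of sequences. In the dense Prkca stretches, 75.4% of 752 T positions carried a 5' end, against 43.8% of A, 34.9% of C and 32% of G positions. In the dense Cbx7 stretches the shares were 62.1% of 810 T positions and 24.2% of A, 20.5% of C and 17.4% of G positions. Start positions with T also had more length variants. A used T position had a mean of 4.50 lengths in Prkca and 3.93 in Cbx7, whereas the means for the other 3 bases lay between 1.56 and 2.01. T positions were thus both more often used and more richly represented in both genes.

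Counted by 5' end, the share with T rose with the number of lengths listed there. Of the Prkca 5' ends with 1 length, 33.2% began with T (n = 695), and of those with 7 to 10 lengths 89.7% did (n = 155). The Cbx7 shares were 39.7% (n = 683) and 96.0% (n = 100). The plot of first base against length variants shows the same order for Kcnk10, from 38.4% to 92.8%, and for Asb1, from 37.5% to 94.1%. The class with 2 to 3 lengths differed most between genes, with 36% in Prkca, 48.4% in Cbx7, 58.6% in Kcnk10 and 60.2% in Asb1. The gap between the loci was therefore not even over the classes.

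**Figure D1:**
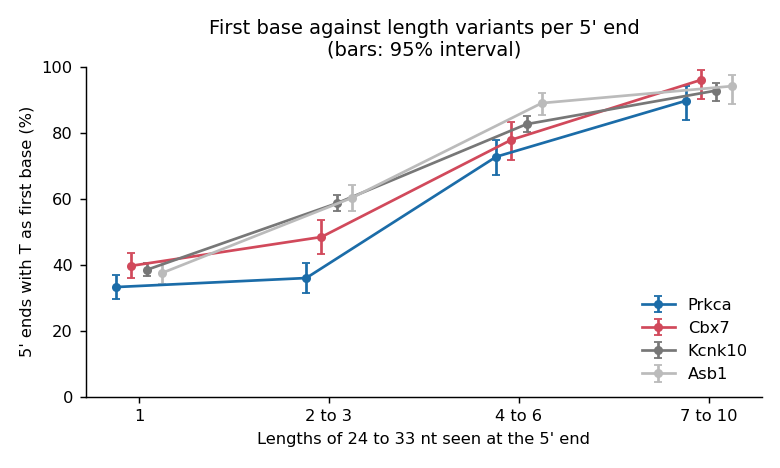
Share of 5' ends that began with T (%, vertical axis, with 95% exact intervals as bars) against the number of lengths of 24 to 33 nt listed at the 5' end, for the sequences of Prkca, Cbx7, Kcnk10 and Asb1. All 4 lines climb, from 33.2 to 39.7% at 5' ends with 1 length to 89.7 to 96.0% at those with 7 to 10 lengths.

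Both loci had the same most frequent length, 27 nt, and nearly the same mean length, 27.7 ± 2.27 nt (SD) in Prkca and 27.6 ± 2.24 nt in Cbx7. Pachytene piRNAs are known as a shorter kind bound by the Piwi protein MILI and a longer kind bound by MIWI. Sequences of 25 to 27 nt made up 40.9% of Prkca and 44.0% of Cbx7 sequences of piRNA length, and those of 29 to 31 nt made up 33.4% and 30.4%. In all other mRNA-annotated sequences the same classes made up 58.0% and 20.6%, and in unannotated sequences 45.7% and 29.7%. They made up 36.7% and 38.2% in Kcnk10, and 37.6% and 37.5% in Asb1. Kcnk10 and Asb1 were most frequent at 30 nt, the other mRNA-annotated sequences at 26 nt and the unannotated ones at 27 nt.

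Many 5' ends had both kinds. Of 882 Prkca 5' ends with a sequence of 29 to 31 nt, 562 (63.7%, 60.4 to 66.9%) also had one of 25 to 27 nt. For Cbx7 the number was 415 of 647 (64.1%, 60.3 to 67.8%). The shares were 55.5% for Kcnk10 and 59.1% for Asb1. The Piwi protein that held a sequence was not measured here. The share of sequences with T first was higher at greater lengths, from 56.6 to 62.7% at 24 to 27 nt to 90.4% in Prkca and 82.5% in Cbx7 at 33 nt, although only 52 and 40 sequences were that long.

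**Figure D2:**
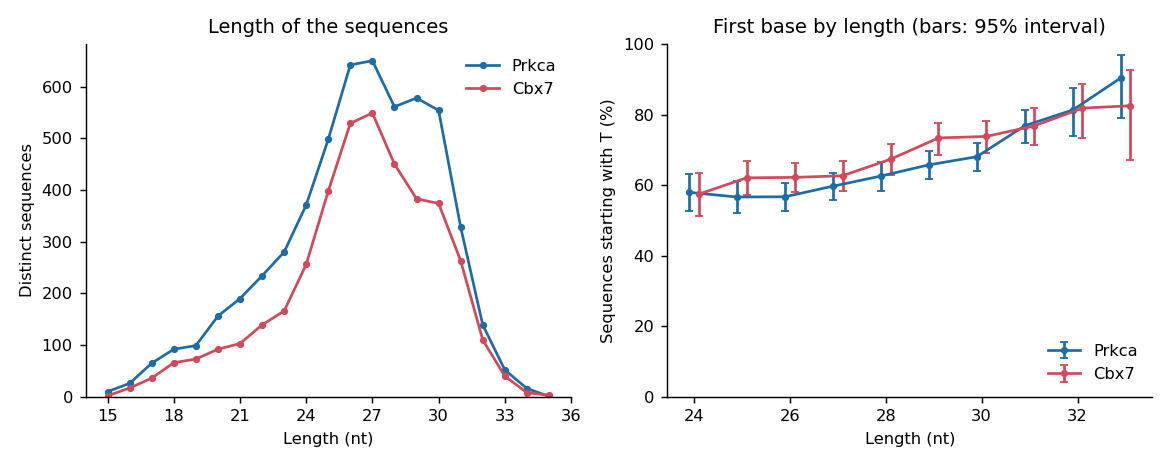
Left, number of distinct sequences (vertical axis) of each length in nt for Prkca and Cbx7. Right, share of sequences starting with T (%) by length with 95% exact intervals. Both genes peak at 27 nt, with 650 and 549 sequences, and over the plotted lengths of 24 to 33 nt both shares are highest at 33 nt.

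Almost all sequences of a stretch lay on the same strand, more completely so in Prkca. In its dense stretches, 6 of 4121 sequences (0.146%, 0.0534 to 0.317%) lay on the strand with fewer sequences, and 15 of 17 stretches had none. In Cbx7, 74 of 3075 sequences (2.41%, 1.89 to 3.01%) did, and 17 of 37 stretches had none. The 2 intervals do not overlap, but they count every sequence as independent. Length variants share a 5' end and the sequences cluster by stretch, so the intervals cannot decide whether the genes differ. The shares are given as a description. Among Cbx7 stretches, 5 had at least 10% on the other strand, all of them sparse. The most even were a stretch of 124 nt with 13 and 11 sequences and a stretch of 61 nt with 6 and 5. In the fullest Cbx7 stretches the numbers were 499 and 6, 476 and 16, and 419 and 6. For comparison the share was 0.336% in Kcnk10, and Asb1 had 0 of 4974 (at most 0.0741%).

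**Figure D3:**
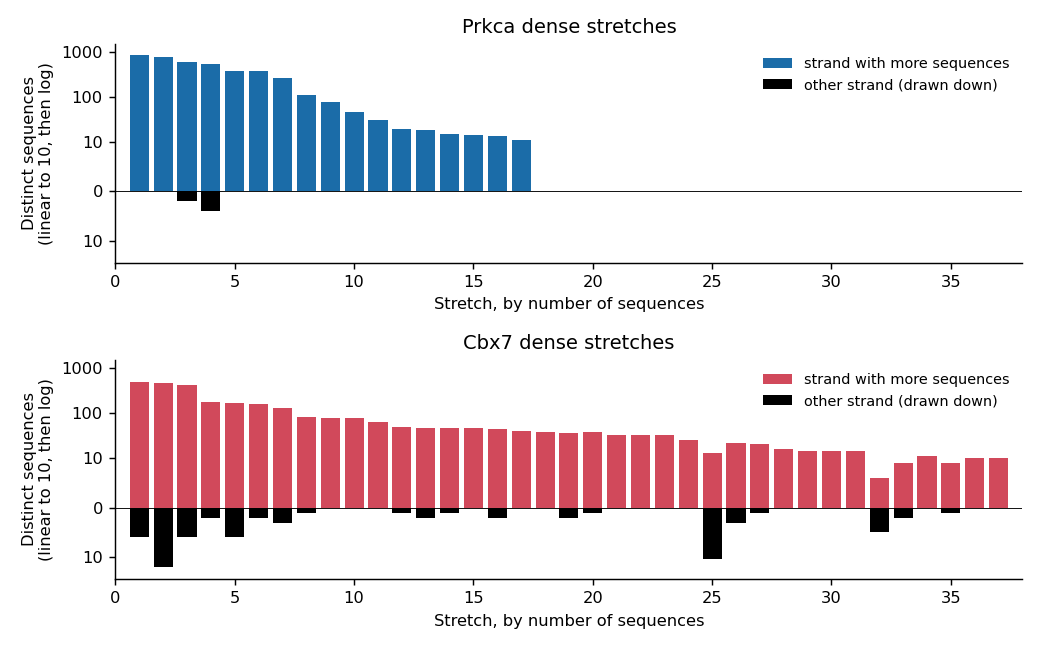
Number of distinct sequences of 24 to 33 nt in each dense stretch (17 for Prkca, 37 for Cbx7), ordered by size, with the strand that held more sequences drawn upwards and the other strand downwards in black, on an axis that is linear to 10 and logarithmic beyond. Prkca has black bars at 2 stretches (2 and 4 sequences), and Cbx7 at 20, up to 16 sequences.

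Opposite-strand 5' ends at the ping-pong distance were few in Prkca and somewhat more frequent in Cbx7. In Prkca, 10 of 1588 5' ends (0.630%, 0.302 to 1.16%) overlapped an opposite-strand 5' end by 10 nt, and the 15 other overlaps from 5 to 20 nt had a mean of 0.495% and a highest value of 0.756%. The share at 10 nt thus lay within the range of other overlaps. These were 5 pairs, 4 of them on 1 stretch of 362 nt. In Cbx7, 82 of 1369 5' ends (5.99%, 4.79 to 7.38%) did, the highest of the 16 overlaps, against 3.88 ± 0.683% (mean ± SD) and at most 5.11% at the 15 others. That is 1.55 times the mean of the others, and the interval at 10 nt includes the highest of them. It was also the highest under the 7 other settings tried, with 4.82 to 6.29%. With partners of any annotation the share was unchanged, but 3352 of the 3355 sequences matching the stretches carried the Cbx7 name already. It was also unchanged with any map number, where no Cbx7 sequence of piRNA length was added. Both settings could hardly differ from the main one. The 41 Cbx7 pairs lay on 15 stretches, with 12 on the stretch of 303 nt that held 16 sequences on its other strand. Both ends of a pair were counted, so the intervals of both genes are narrower than the counting error of pairs. The ratio was 1.54 in Kcnk10, where 0.95% of 5' ends had such a partner. That was likewise the highest of the 16 overlaps, against at most 0.804% at the others.

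**Figure D4:**
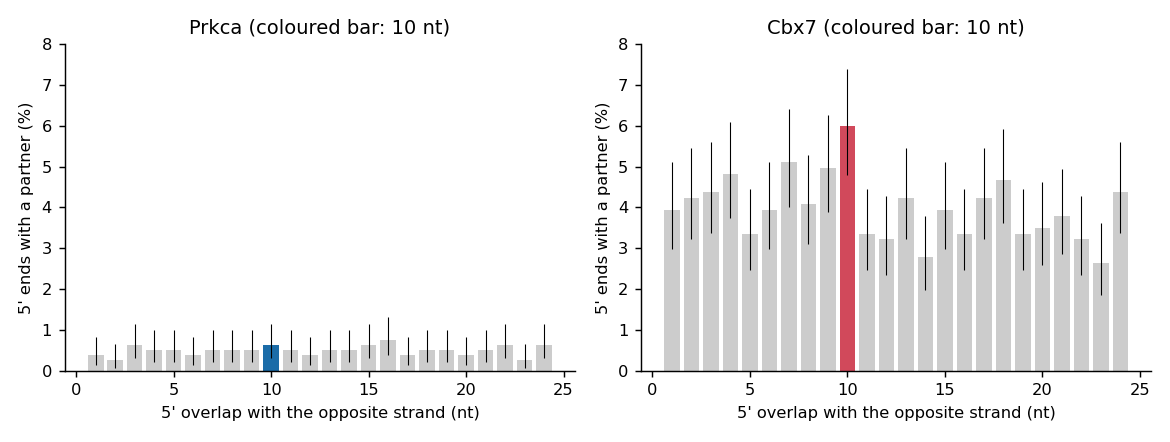
Share of 5' ends (%, vertical axis, 95% exact intervals as bars) that overlap an opposite-strand 5' end by the number of nt on the horizontal axis, for Prkca (left) and Cbx7 (right). The coloured bar at 10 nt is 0.630% in Prkca, inside the range of the grey bars, and 5.99% in Cbx7, above each of them.

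Head-to-tail order of the sequences was close to its background at both loci. A 5' end on the same strand directly followed 44.1% of 1968 Prkca 3' ends, and the distances from 2 to 20 nt gave a mean of 42.9% and at most 44.9%. In Cbx7 the share was 26.0% of 1868 3' ends, against a mean of 23.7% and at most 25.7%. The direct distance was the highest of the 20 in Cbx7 but not in Prkca. In Cbx7 this ended with 25 to 32 nt (25.1% against a highest of 25.3%) and with joining through runs of 14 nt (27.05% against 27.37%). With so many positions used as starts, the background itself was high. The base after a 3' end was T in 23.6% of Prkca and 22.5% of Cbx7 cases, while T made up 25.5% and 22.2% of the dense stretches.

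Few sequences matched a spliced transcript of the gene they were named for. Prkca lies on chr11:107933387-108343928 on the minus strand (GRCm38, GENCODE release M21), and 15 of 4362 sequences mapped to 1 position (0.344%) matched its transcripts in sense, none in antisense. Of these, 4 began in the 5' untranslated region of the transcript paired with the RefSeq mRNA, 8 in its coding sequence and 3 in its 3' untranslated region of 6132 nt. None of the 15 lay on a dense stretch. Where the dense stretches could be placed by other annotated transcripts, they lay on the opposite strand.

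A pair of annotated genes inside Prkca allowed this placement. A further annotated antisense gene there, 12277 nt long, was matched in its transcript by no Prkca sequence of piRNA length. Gm11657, an antisense gene (chr11:107994022-107994631, plus strand), and the miRNA gene Mir7223 (chr11:107996848-107996916, plus strand) both lie in intron 8 of Prkca (chr11:107986386-108012626), 2216 nt apart. The Gm11657 transcript of 337 nt was matched by 486 sequences of piRNA length in sense and 4 in antisense. The Mir7223 hairpin of 69 nt held 72 sequences in sense and 0 in antisense. All 490 deposited sequences of piRNA length that matched Gm11657, and all 72 that matched the hairpin, carried the Prkca annotation, so the name also covered intronic sequence of the opposite strand. Of the 577 Prkca sequences matching any of these transcripts, 19 (3.29%, 1.99 to 5.09%) lay on the strand of Prkca.

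Sequences filled the Gm11657 transcript and ran past both of its annotated ends. The 362 nt stretch with 536 sequences shares transcript positions 35 to 337 and goes on for 59 nt beyond. A stretch of 51 nt shares positions 1 to 33 and begins 18 nt before. There were 172 sense 5' end positions on the 337 nt, and 61.5% of the sense sequences began with T (57.0 to 65.9%). No sequence crossed the splice junction of Gm11657 by more than 2 bases on both sides. The list gives mapped positions but no aligner, so junction-crossing sequences may have been left out of it. This count therefore cannot tell whether the source RNA was spliced.

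The Mir7223 hairpin lay whole inside a stretch of 251 nt, which held 368 sequences, all on the strand of the hairpin, and ran 11 nt before and 171 nt after it. A miRNA hairpin is normally cut at fixed positions that give a mature strand from each arm. The hairpin and its mature miRNAs (RefSeq, GRCm38.p6) are shown with capitals at bases where a Prkca sequence of any length began in the hairpin, and at the seed in the mature miRNAs:
hairpin: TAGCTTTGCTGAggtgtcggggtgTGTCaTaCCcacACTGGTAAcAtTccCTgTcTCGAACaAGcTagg
miR-7223-5p: uAGCUUUGcugaggugucgg
miR-7223-3p: gUCUCGAAcaagcuagg

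On the hairpin, 125 sequences began at 41 of its 69 positions, 104 of them of piRNA length, 18 of 19 to 23 nt and 3 of 15 to 18 nt. Over all lengths the richest start, with 13 sequences of 18 to 30 nt, was its first base, which is also the 5' end of miR-7223-5p. Of these 13, 5 were of 19 to 23 nt and 1 was identical to the mature miRNA. At piRNA length alone, position 7 had most sequences with 9, then position 10 with 8, and the first base had 7. The longest began as the hairpin does and is shown with bases 1 and 10 in capitals:
longest form at this start: TagctttgcTgaggtgtcggggtgtgtcat

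No sequence began at the 5' end of miR-7223-3p, which is position 53 of the hairpin, although 5 began 1 base before it at position 52. Starts were spread along the hairpin and were not limited to the mature 5' ends. Sequences of piRNA length starting in the hairpin began with T in 65.4% of cases, near the 63.3% of all Prkca sequences.

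**Figure D5:**
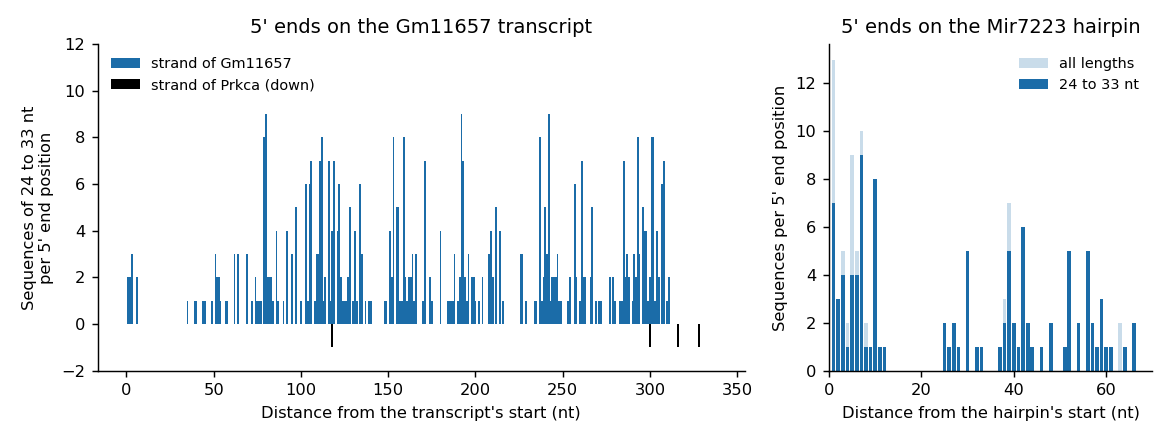
Number of Prkca-annotated sequences (vertical axes) by the position of the 5' end, in nt from the start of the Gm11657 transcript (left, 24 to 33 nt, strand of Prkca drawn downwards) and of the Mir7223 hairpin (right, all lengths in pale and 24 to 33 nt in dark). Sequences that run past the end of the transcript are not drawn on the left. Starts are spread over both, with 4 sequences on the strand of Prkca on the left and a highest bar of 13 at the first base of the hairpin.

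Cbx7 differed from Prkca in that both strands of its exons were matched. Cbx7 lies on chr15:79915807-79971119 on the minus strand, and 91 of 3352 sequences (2.71%, 2.19 to 3.32%) matched its transcripts in sense and 31 (0.925%) in antisense. T came first in 79.1% of the sense sequences, close to the 78.6% of other mRNA-annotated sequences, and in 71.0% of the antisense ones. On the transcript paired with the RefSeq mRNA, 59 of 72 sense sequences began in the 3' untranslated region of 2289 nt and 12 in the coding sequence of 474 nt, which is 25.8 and 25.3 per kb. The proportion of the 2 directions differed between exons. The last exon block (chr15:79915807-79921438) held 82 sense and 7 antisense sequences, whereas an exon block of 82 nt (chr15:79930548-79930629) held 1 sense and 14 antisense, and a block of 321 nt upstream of it held 5 and 9. The 2 exon blocks furthest upstream, of 251 and 135 nt, held 0 of either direction. Per kb of exon the antisense sequences numbered 171 in the 82 nt block, 28 in the block of 321 nt and 1.24 in the last exon block. No antisense sequence lay in the 100 nt that the last exon shares with the neighbouring gene Apobec3, which runs the other way.

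The dense Cbx7 stretches seldom held exon sequence. Of the 91 sense sequences, 90 lay outside dense stretches, and of the 31 antisense sequences, 15 lay on dense stretches. These 15 and the remaining sense sequence all lay on a single dense stretch, 162 nt long with 49 sequences, which could so be placed. Its matches inside the exon cover chr15:79930550-79930629 of the 82 nt block, and 47 of its 49 sequences lay on the strand opposite to Cbx7. The strand of the other 36 dense Cbx7 stretches relative to the gene was not determined. The same holds for the 14 dense Prkca stretches without a transcript match, so the placed stretches may not stand for the rest.

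The edges of the stretches met other annotations. Inside the stretches, all 4361 deposited sequences of piRNA length that matched Prkca stretches carried the Prkca name, and 3352 of 3355 that matched Cbx7 stretches carried that of Cbx7. Members built the stretches, so this says only that hardly any other name fell within them. Sequences mapped to 1 position that reached over an edge by sharing 18 nt with it were mostly blank (76) or named for repeats and other elements (60) in Prkca, among them the short interspersed elements MIRb (27) and MIRm (19). In Cbx7, 23 of 25 were so named, led by MIRc (14). A stretch ends where sequences of the name could no longer be joined, and no end of a precursor was measured.

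The other genes of both families had fewer sequences than Prkca and Cbx7, by widely different amounts. Prkca and Cbx7 were chosen for many sequences and a low share matching the spliced mRNA. Their distance from the other genes in number and sense share therefore restates that choice and is only a description. Of the 8 other protein kinase C genes, 7 had any sequence of piRNA length, led by Prkce with 260, Prkch with 79 and Prkcb with 50. The sense share was 0.410% in Prkce, 2.53% in Prkch and 12% in Prkcb, and in the other 4 genes with sequences it ranged from 26.3% to 100%, on 38 sequences or fewer. Of the 7 other Cbx genes all had some, led by the heterochromatin protein gene Cbx5 with 1966, then Cbx2 with 135 and Cbx6 with 107. Their sense shares were 98.4%, 95.2% and 98.1%, against 2.71% for Cbx7, and in the other 4 genes the share ranged from 44.4% to 80%.

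Set among the 134 mRNA accessions with at least 500 sequences of piRNA length mapped to 1 position, Prkca ranked 4 and Cbx7 ranked 5 by number, which the choice of names had used. By sequences per kb of dense stretch they ranked 2 and 8 from the highest, where the median was 282 per kb. This measure counts the same sequences that the choice of names had used, so the rank is no separate result. By the share with T first Prkca and Cbx7 ranked 131 and 128 from the highest, where the median was 80.5%. Across the 134 accessions density and the share with T first were inversely related, with a Pearson correlation of -0.67 and a Spearman correlation of -0.63. The accessions share the list and its depth, and both measures come from the same sequences, so this is a description. By the share on the other strand they ranked 71 and 37, where the median was 0.200%.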

How the data were processed

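The authors deposited 1 list for all libraries with 3 columns, per the file headers a sequence, the number of positions it mapped to and an annotation. This map number is neither a read count nor an abundance. The sources used here give no aligner, genome build or annotation order. Per the labels, RNA was size selected before linker ligation and PCR. Sequences were joined through successive runs of 16 nt and placed exactly on stretches and on GENCODE M21 transcripts. They were counted in Python 3.11.15 with scipy 1.17.1 and matplotlib 3.10.9. The transcripts are of GRCm38, the coordinates theirs. The counting was tested on simulated data: all 740 sequences returned to their place and strand, 120 of 120 partners at 10 nt and 80 of 80 following ends were found, and 0 of 1000 random sequences were placed. The members and lists were chosen with earlier results of these data known. Genes named were both members, Kcnk10 and Asb1, the first 3 of each family, and genes overlapping or next to the stretches. The printed 60 nt windows were picked with the data in view. Comparisons of genotype or age, and runs of sequences along the genome, were not analysed here.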

Additional observations from a re-analysis of the deposited data

Results flagged for a closer look

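Sequences outside 24 to 33 nt entered the counts over all lengths and those on the Mir7223 hairpin but none of the other values above, and they were well above the 3 counts that a count of 0 allows. Prkca had 193 sequences of 15 to 18 nt, 959 of 19 to 23 nt and 17 of 34 to 36 nt. Cbx7 had 121, 573 and 11 of these lengths. T came first in 25.4%, 46.8% and 88.2% of the Prkca classes and in 24.8%, 48.5% and 100% of the Cbx7 classes, in the same order. Of the 19 to 23 nt sequences, 79.9% in Prkca and 70.5% in Cbx7 were identical to the start of a longer sequence of piRNA length, and of the 15 to 18 nt sequences 64.2% and 50.4% were.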

How the results depend on the processing

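Of 84 values recomputed under another setting, 69 stayed within the main value's 95% interval (for the length of dense stretches, within 1.5 times) and 15 did not. Settings on map number could change little, since 99.7% of Prkca and 100% of Cbx7 sequences of piRNA length mapped to 1 position. The same holds for partners of any annotation, since hardly any other name fell within the stretches. No value reversed. With all lengths, the share with T first was 59.2% in Prkca and 63.4% in Cbx7, directly followed 3' ends made up 48.8% and 30.3%, and stretch sequences with the gene's name 96.0% and 96.7%. Other lengths then enter by construction, and the mean length was 26.3 and 26.5 nt, or 27.9 nt in both with 25 to 32 nt. Sequences per 5' end (first 20 nt) numbered 2.73 in Prkca and 2.45 in Cbx7, with all lengths 3.01 and 2.59, and in Prkca with 25 to 32 nt 2.58. With sequences joined through runs of 20 nt, directly followed 3' ends made up 39.4% and 21.9%. That alternative was added after the data had been seen, as were runs of 14 nt and 18 nt and any map number. The planned runs along the genome (gaps of 2, 10 and 50 kb), their span and the share inside the gene were not run, since no genome was used. Shares by strand and name used stretches and transcripts in their place. No paired analysis was possible because no sequence was tied to a library. Read numbers were not used here, so rare and abundant sequences count alike.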
